A study of Mus musculus with 12 samples.

Results

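The response of Cop1-loss cells to interferon gamma (IFNγ) was read from RNA sequencing of 4T1, a mouse mammary carcinoma line from the BALB/c strain. The 8 libraries described here are all those of the series, 12 in all, that carry a guide RNA against Cop1. They comprise 4 libraries of cells given IFNγ at 20 ng/ml for 24 hours and 4 of cells given vehicle. Each treatment holds 2 libraries with Cop1 sgRNA1 and 2 with Cop1 sgRNA2, and IFNγ was compared with vehicle within each guide and the log2 changes were averaged over the guides. The other 4 libraries carry a control guide against Rosa26, 2 with vehicle and 2 with IFNγ, and serve here only to show where the response of Cop1-loss cells differed. The Cop1-guide cells are called Cop1 loss after the series' design text, and the labels give neither the cut sites nor whether a population is a pool or a clone, nor whether replicates were separate cultures, so that a p-value reflects no more than the spread among these libraries, which may be technical.

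IFNγ is a cytokine of activated T cells and natural killer cells. Its receptor acts through JAK kinases and STAT transcription factors, and gamma-activated sites (GAS) in promoters mark a first set of genes that respond. Among these is Irf1, and interferon regulatory factors then act through interferon-stimulated response elements (ISRE) on further genes, including those for antigen presentation, antiviral defence and chemokines. COP1 is an E3 ubiquitin ligase whose known substrates include c-Jun and factors of the C/EBP and ETS families. The design asks how cells that lack it answer IFNγ. In bulk RNA, a change in the share of cells that express a gene and a change per cell cannot be told apart.

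The Cop1-guide libraries held 19378070 to 32609717 gene counts. Cop1 itself (chromosome 1, 159232320 to 159347640, plus strand, GRCm38) stood at 59.1, 63.1, 34.5 and 34.7 CPM (counts per 1000000, on scaled library sizes) with vehicle and 60.7, 60.2, 32.3 and 33.6 with IFNγ, and the Rosa26 libraries at 89.7 and 98.2 and 80.4 and 83.3. Here and below, 4 values per treatment are in the order sgRNA1 replicates 1 and 2, then sgRNA2 replicates 1 and 2. Every Cop1-guide library lay below every Rosa26 library, sgRNA2 lower than sgRNA1, and IFNγ left no called change (-0.042 ± 0.044 on the log2 scale, standard error; adjusted p = 0.507). Of 6 markers of epithelial carcinoma cells, Epcam, Krt8, Krt18, Cdh1 and Krt14 passed the filter on low counts, and Krt5 had no count in the 8 libraries. Of 18 leukocyte markers 4 passed the filter, and Cd3e, Adgre1, Nkg7, Cd8a and Cd4 were among those at 0. Those that passed were Cd14 (1550 vehicle and 1255 IFNγ counts over 4 libraries each), Cd68 (687 and 681), S100a8 (164 and 481) and Csf1r (66 and 26). The summed level of the 18 was 23.6 to 26.4 CPM with vehicle and 23.8 to 30.4 with IFNγ. For 12 fibroblast and endothelial markers, of which 4 passed, the sums were 20.4 to 24.7 and 16.9 to 18.9 CPM.

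IFNγ raised 2152 of 11904 tested genes in Cop1-loss cells (18.1%) and lowered 1921 (16.1%), by edgeR's quasi-likelihood test with a Benjamini-Hochberg adjusted p under 0.05. These 4073 calls were 34.2% of tested genes. The rest of the text uses rose, fell and called in that sense. The median log2 change of all tested genes was -0.01. The replicates differed by 3.21% beyond counting noise, so that small changes could be called. The balance of small changes depended on the scaling: with upper-quartile scaling 1502 genes were higher (33.1% of calls, against 52.8%) and 3038 lower. Changes of at least 2-fold numbered 414 (3.48%) and were uneven. Of them 338 were increases (2.84% of tested genes) and 76 were decreases (0.638%). For 82 of the 338, fewer than 2 vehicle libraries reached the filter on low counts. They were tested only because of their IFNγ libraries, which favours an increase, so that their rise is no separate evidence. Of all tested genes 239 passed in this way, and 1 of them, Gm28802, was lowered at least 2-fold. Conversely, 24 of the 76 decreases were tested only because of vehicle libraries, which favours a decrease. Their fall is no separate evidence either. Of all tested genes 245 passed through vehicle libraries only. In the lists below, members tested only through the IFNγ libraries are given beside the list. Exceptions are Il6, Ccl4 and Aim2, which are 1 member each of the inflammatory cytokine, monocyte attractant and caspase lists. Among the increases, 178 reached 4-fold, 103 reached 8-fold and 44 reached 32-fold. IFNγ and vehicle libraries lay apart on the first principal component, which held 59.2% of the variance.

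Some of the most induced genes were nearly silent without IFNγ. Those given here were chosen for at most 3 counts over the 4 vehicle libraries and the highest levels with IFNγ. So few counts lie below the filter's minimum count of 10, and these genes were tested only through the IFNγ libraries. Both the choice and the filter favour a high ratio, so that the near silence and the ratios are no separate evidence. Gm4841 is listed with immunity-related GTPases. It had 0 counts in the 4 vehicle libraries and 9267 in the 4 IFNγ libraries, at least 3375-fold higher against a floor of 3 counts over the group. Gm12185 went from 0 to 1885 counts, at least 687-fold higher. Mpeg1 encodes perforin-2, a pore-forming protein of phagocytes directed against bacteria. It had 3 vehicle counts and 1873 with IFNγ, a ratio of 682 (exact 95% counting interval 233 to 3311). Apol6 had 3 and 1726 counts (ratio 629, interval 215 to 3052), and the GTPase gene Tgtp2 2 and 1597 (ratio 873, interval 241 to 7211). These intervals cover counting error only. All 4 IFNγ libraries shared these signals, for example 2428, 2055, 2545 and 2239 counts for Gm4841.

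**Figure D1:**
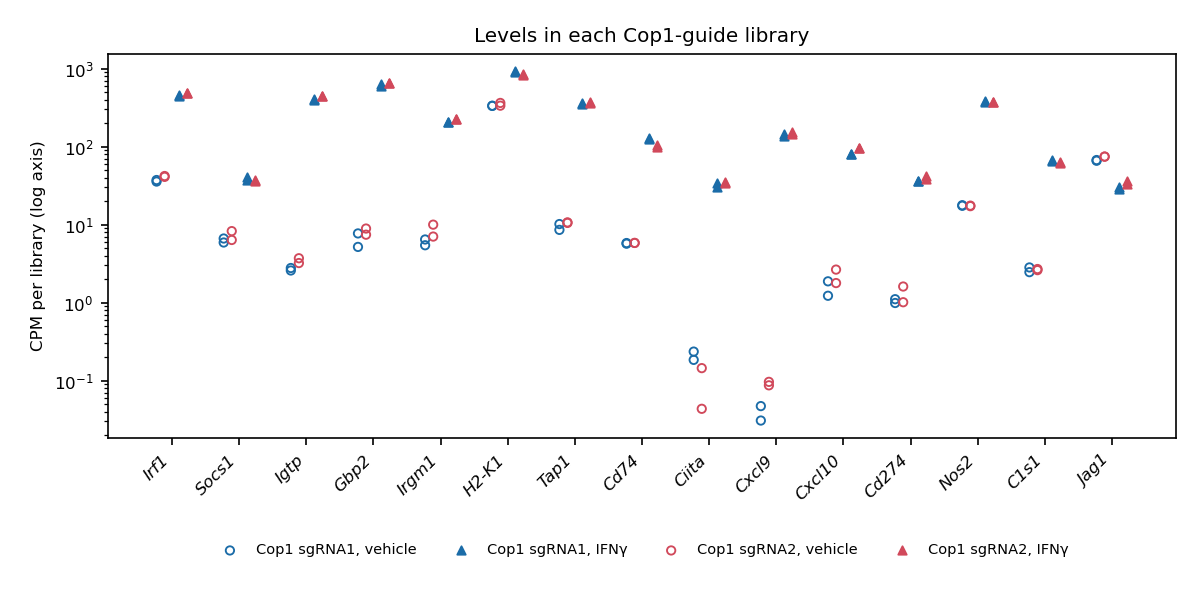
Levels of 15 genes in each Cop1-guide library, in CPM on a log axis, with open circles for vehicle, filled triangles for IFNγ and colours for the guides (2 libraries per guide and treatment). For each gene the 4 IFNγ libraries lie apart from the 4 vehicle libraries, above them for 14 genes and below them for Jag1.

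The genes that carry the signal inside the cell rose unevenly. Among 14 tested receptor, JAK and STAT genes 7 rose and 3 fell (median 0.07), and with upper-quartile scaling 5 rose and 4 fell. Stat2, a transcription factor of the type I interferon response (2.81 ± 0.044), and Stat3 (1.20 ± 0.032) rose. Ifnar2, a subunit of the type I interferon receptor, rose by 0.75 ± 0.065. The kinase genes Jak3 (0.064 ± 0.056, adjusted p = 0.409) and Tyk2 (-0.13 ± 0.057, adjusted p = 0.0619) were not called.

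Interferon regulatory factors, the second tier of transcription factors, rose in 6 of 8 cases and fell in 1 (median 1.68). Irf1 stood at 37.3, 35.6, 40.9 and 41.9 CPM with vehicle and 452, 464, 485 and 486 with IFNγ (3.60 ± 0.029, adjusted p = 3.02e-51). Irf8, best known from myeloid and B cells, was already present, at 39.3, 40.5, 33.5 and 36.6 CPM, and reached 245, 236, 222 and 230.5 (2.64 ± 0.034). Irf7, an amplifier of type I interferon production, rose by 3.32 ± 0.10, and its sgRNA2 libraries (35.2 and 39.9 CPM) ended above its sgRNA1 libraries (22.2 and 22.5 CPM). Irf9, the DNA-binding partner of STAT2, rose by 2.44 ± 0.056. Irf3, which is activated by phosphorylation, was not called (0.11 ± 0.064, adjusted p = 0.212).

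Of 14 genes of feedback on interferon signalling 5 rose and 3 fell, with a median of -0.015. With upper-quartile scaling 3 rose. Socs1, the inhibitor of JAK kinases that IFNγ itself induces, rose from 5.89, 6.63, 6.34 and 8.24 CPM to 40.9, 37.2, 36.9 and 36.2 (2.49 ± 0.08, adjusted p = 6.20e-29). Socs3 (1.28 ± 0.047) and Usp18, which removes ISG15 from proteins and dampens type I interferon signalling (2.10 ± 0.14), rose as well. Pias4, a SUMO ligase, was not called (-0.054 ± 0.051, adjusted p = 0.448).

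Guanylate-binding proteins and immunity-related GTPases, large interferon-induced GTPases that attack vacuoles of intracellular pathogens, included the largest increases. Of 11 tested guanylate-binding proteins 4 reached the filter only through the IFNγ libraries, which favoured a higher value there. The other 7 rose at least 2-fold, with a median log2 change of 6.67. Of 15 listed immunity-related GTPases 10 were tested, 7 of them only through the IFNγ libraries, Iigp1 and Tgtp1 included. The other 3 are Igtp, Irgm1 and Irgm2, which all rose. Iigp1 had 17 counts over the vehicle libraries and 35727 over the IFNγ libraries (11.18 ± 0.37), and Tgtp1 7 and 18951 (11.44 ± 0.55). Few vehicle counts limit the precision of both values.

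Gbp4 stood at 2.18, 2.26, 2.5 and 2.47 CPM with vehicle and at 1089, 1096, 1187 and 1200.1 with IFNγ (8.93 ± 0.10, adjusted p = 1.59e-59). Gbp2 rose from 7.7, 5.17, 8.89 and 7.42 CPM to 607, 638, 656 and 648 (6.43 ± 0.077). Igtp, which encodes an immunity-related GTPase, rose from 2.58, 2.77, 3.7 and 3.21 CPM to 395, 413, 449 and 444 (7.13 ± 0.086). In these 3 genes every IFNγ library stood far above every vehicle library. Gbp2b (6.78 ± 0.065), Gbp7 (6.67 ± 0.086), Gbp3 (6.45 ± 0.072) and Irgm2 (6.40 ± 0.093) were also among the 12 largest increases among genes called with each guide alone whose log2 CPM averaged 3 or more, and Irgm1, a regulator of the other GTPases, rose by 4.93 ± 0.065. These genes form families with near-identical members, and how the authors' counting divided shared reads is not given in the sources used here.

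Promoter sequences were read for the induced genes because the pathway acts through known elements. RefSeq promoters of GRCm38.p6, 250 bases before to 50 after each start, matched 251 of the 338 genes raised at least 2-fold, 45 of the 76 lowered at least 2-fold and 9136 of the 11490 other tested genes. The ISRE core was searched as GAAA, any 2 bases and GAAA again, and on the other strand as TTTC, any 2 bases and TTTC. The GAS core was searched as TTCNNNGAA, which reads the same on both strands. Matches of both cores may overlap. An ISRE core was found in 27.1% of the matched raised genes, 4.44% of the lowered genes, 3.11% of the others and 3.99% of all 27025 genes in the table. A GAS core was found in 17.9%, 6.67%, 8.09% and 9.55%, and both cores in 6.37%, 0%, 0.361% and 0.614%. These are descriptions of letters in a fixed window, not sites shown to bind. The sequences come from the C57BL/6J reference, whereas 4T1 cells are BALB/c.

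Promoter stretches of 12 genes that the results turn on are shown 5′ to 3′ on the gene's strand (GRCm38.p6). The matches are in capitals, with 20 bases on each side. Only genes with a match could be shown, so these 12 do not stand for all raised genes.
Igtp (chr11:58199491-58199551, plus strand): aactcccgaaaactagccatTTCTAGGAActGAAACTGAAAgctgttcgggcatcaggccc
Irgm2 (chr11:58214882-58214942, plus strand): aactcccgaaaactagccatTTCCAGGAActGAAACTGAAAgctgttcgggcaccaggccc
Irgm1 (chr11:48871421-48871470, minus strand): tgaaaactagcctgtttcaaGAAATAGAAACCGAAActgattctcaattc
Gbp2 (chr3:142620584-142620633, plus strand): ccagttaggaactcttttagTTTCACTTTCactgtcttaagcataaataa
Gbp2b (chr3:142594690-142594739, plus strand): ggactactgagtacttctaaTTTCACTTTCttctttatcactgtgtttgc
Gbp3 (chr3:142559979-142560034, plus strand): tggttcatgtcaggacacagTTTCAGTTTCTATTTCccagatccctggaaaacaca
Gbp7 (chr3:142530210-142530312, plus strand): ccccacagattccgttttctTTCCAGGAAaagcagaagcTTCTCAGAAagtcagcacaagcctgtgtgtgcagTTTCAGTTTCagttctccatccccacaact
Cxcl10 (chr5:92349073-92349122, minus strand): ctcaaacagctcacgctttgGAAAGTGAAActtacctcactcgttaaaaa
Irf1 (chr11:53769904-53769952, plus strand): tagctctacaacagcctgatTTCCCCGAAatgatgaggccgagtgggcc
Socs1 (chr16:10785584-10785639, minus strand): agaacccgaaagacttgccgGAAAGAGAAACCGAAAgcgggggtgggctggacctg
Isg15 (chr4:156200855-156200916, minus strand): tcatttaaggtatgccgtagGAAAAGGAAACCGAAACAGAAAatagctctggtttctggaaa
B2m (chr2:122147528-122147577, plus strand): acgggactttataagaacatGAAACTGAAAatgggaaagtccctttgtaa
The neighbouring genes Igtp and Irgm2 have a GAS core followed by an ISRE core at the same spacing, with 11 bases from start to start, and Gbp7 has 2 GAS cores and 1 ISRE core. Irf1 has a GAS core and no ISRE core in the window. Gbp3, Irgm1, Socs1 and Isg15 have overlapping ISRE cores, 3 of them in Isg15. In B2m and Cxcl10 the ISRE core lies 139 and 213 bases upstream of the start.

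**Figure D2:**
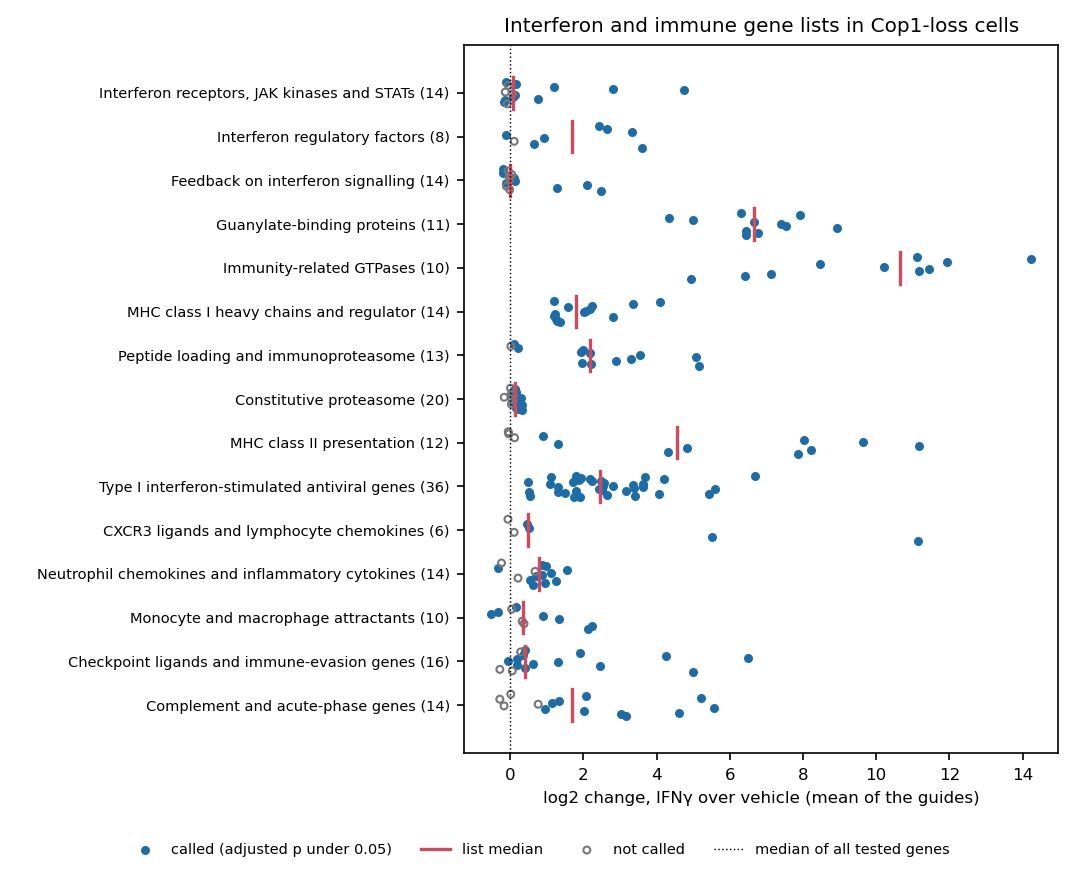
Log2 change with IFNγ in Cop1-loss cells (horizontal axis) of each tested member of 15 interferon and immune gene lists, with the number tested in parentheses. Filled points were called, open points were not, red bars mark list medians and the dotted line the median of all tested genes. The GTPase lists lie farthest to the right, the constitutive proteasome and feedback lists close to the dotted line. Points and medians include members that passed the filter only through the IFNγ libraries, which favours higher values. Without them the median is 6.40 for 3 immunity-related GTPases, 6.67 for 7 guanylate-binding proteins and 0.89 for 7 MHC class II genes.

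Antigen presentation by MHC class I, which shows peptides from inside the cell to cytotoxic T cells, gained transcripts of nearly all its components. Of 17 listed heavy chain genes and regulators 14 were tested, and all rose at least 2-fold (median 1.80, from 1.18 to 4.09). H2-K1, a classical heavy chain, stood at 334, 332, 363 and 335 CPM with vehicle and 919.7, 905, 843 and 831 with IFNγ (1.36 ± 0.022, adjusted p = 4.51e-39). B2m, the light chain of every class I molecule, rose from 584, 560.3, 623 and 602 to 1455, 1409, 1379 and 1358 CPM (1.24 ± 0.019). Both were abundant before IFNγ and still rose with no overlap. H2-D1 rose by 1.27 ± 0.017, and the non-classical H2-T23 (3.35 ± 0.042) and H2-Q4 (2.02 ± 0.028) rose more. Nlrc5, the transactivator of class I genes, rose by 2.81 ± 0.041. The H2 alleles of BALB/c differ from those of the reference strain, and what this does to the H2 counts was not tested.

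Of 13 genes of peptide loading and the immunoproteasome 12 rose, with a median of 2.18. Tap1, a subunit of the transporter that brings peptides into the endoplasmic reticulum, rose from 10.2, 8.55, 10.7 and 10.5 to 355, 360.1, 357 and 373 CPM (5.17 ± 0.049, adjusted p = 1.17e-52). The immunoproteasome subunit genes Psmb9 (5.07 ± 0.067) and Psmb10 (3.54 ± 0.033) and Tapbp, which encodes the peptide editor tapasin (1.96 ± 0.023), rose too. Canx, the general chaperone calnexin, was not called (0.017 ± 0.019, adjusted p = 0.536; -0.032 with upper-quartile scaling). Subunits of the constitutive proteasome moved far less. Of 20 subunits 14 rose with a median of 0.13, and 12 rose and 1 fell with upper-quartile scaling. The 4 largest increases were those of Psma1 (0.33 ± 0.024), Psma5 (0.31 ± 0.024), Psmb4 (0.28 ± 0.022) and Psma7 (0.24 ± 0.024), none reaching 2-fold.

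MHC class II, which presents peptides from outside the cell and is normally the task of professional antigen-presenting cells, came on from a low level. Of 16 listed genes 12 were tested. Of these 5, among them Ciita and H2-Aa, reached the filter only through the IFNγ libraries, which favoured a higher value there. Of the other 7 genes 4 rose (median 0.89). Ciita, the master regulator of class II genes, stood at 0.184, 0.235, 0.144 and 0.0434 CPM with vehicle and 30.5, 34.3, 33.8 and 35.3 with IFNγ (7.88 ± 0.45, adjusted p = 1.78e-34). Cd74, the class II invariant chain, rose from 5.8, 5.69, 5.82 and 5.81 to 125, 129.7, 100.2 and 105 CPM (4.30 ± 0.07). H2-Ab1 (4.82 ± 0.20) and H2-Aa (8.23 ± 0.82; 4 vehicle counts) encode the chains of a class II molecule. With IFNγ, H2-Aa reached 17.9, 15.2, 11 and 12.8 CPM, the sgRNA2 libraries below the sgRNA1 libraries. The lysosomal reductase gene Ifi30 (0.12 ± 0.056, adjusted p = 0.0969) and Rfxap, a subunit of the constitutive class II promoter complex (-0.042 ± 0.06, adjusted p = 0.633), were not called. Leukocyte markers measured beside this result went both ways. Over 4 libraries each, Ptprc had 9 vehicle and 1 IFNγ counts, Itgax 6 and 2, Cd14 1550 and 1255, and Cd68 687 and 681. S100a8 had 164 and 481, S100a9 3 and 8, Lyz2 6 and 9, and Ly6g 1 and 4. Whether the culture held other cells was not tested.

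Of 36 tested antiviral genes usually listed as type I interferon-stimulated, 3 reached the filter only through the IFNγ libraries. The other 33 rose, 30 of them at least 2-fold (median 2.23). Zbp1, a sensor of unusual nucleic acids, rose from 0.46, 0.564, 0.577 and 0.911 to 57.9, 51.7, 74.3 and 73.2 CPM (6.68 ± 0.19). Parp14 (4.20 ± 0.049), Oasl2 (3.63 ± 0.057) and Bst2, which tethers budding viruses to the cell (2.82 ± 0.032), were, with Zbp1, called with the smallest p. Isg15, a ubiquitin-like modifier, stood at 8.92, 6.3, 11.2 and 11.5 CPM with vehicle and 28.4, 27.3, 41.1 and 48.5 with IFNγ (1.90 ± 0.075, adjusted p = 2.72e-25) and the sgRNA2 libraries were above the sgRNA1 libraries in both treatments.

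Chemokines that draw activated T cells through CXCR3 were induced strongly. Cxcl9 had 6 counts over the vehicle libraries and 145, 138, 154 and 144 CPM with IFNγ (11.15 ± 0.63, adjusted p = 4.66e-49), and it passed the filter only through the latter. Cxcl10 rose from 1.87, 1.22, 1.78 and 2.65 to 81.3, 79.4, 95 and 94.6 CPM (5.52 ± 0.11, adjusted p = 1.84e-42). Cxcl16, the ligand of CXCR6, rose modestly (0.52 ± 0.028), as did Ccl5 (0.46 ± 0.079). The response of Ccl5 was called with sgRNA1 (0.77 ± 0.11, adjusted p = 5.09e-07) and not with sgRNA2 (0.14 ± 0.11, adjusted p = 0.388), but the difference between the guides was not called (-0.63 ± 0.16, adjusted p = 0.128). Of 15 genes on this list only 6 passed the filter, and Cxcr3 (0.11 ± 0.082, adjusted p = 0.344) was not called.

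Of 14 neutrophil chemokines and inflammatory cytokines 10 rose and 1 fell (median 0.78). Csf3, the granulocyte growth factor G-CSF, was abundant and rose from 572, 548, 437 and 423 to 1082, 1086, 753 and 757 CPM (0.88 ± 0.02), with sgRNA1 above sgRNA2 in both treatments. Lif (0.87 ± 0.024), Il1a, an alarm cytokine (1.12 ± 0.034), and Cxcl1, a neutrophil attractant (0.63 ± 0.023), rose too. Il11 (-0.24 ± 0.17, adjusted p = 0.308) and Il1b (0.68 ± 0.32, adjusted p = 0.0976) were not called. Monocyte attractants went both ways, with 5 of 10 higher and 2 lower. Ccl2, the main ligand of CCR2, rose from 12.6, 21.1, 20.2 and 18.2 to 85, 87.7, 69 and 70.1 CPM (2.14 ± 0.13). Cx3cl1 (1.33 ± 0.034) and the macrophage growth factor gene Csf1 (0.89 ± 0.023) rose, while Il34 (-0.51 ± 0.062), another ligand of the CSF1 receptor, and Spp1, which encodes osteopontin (-0.35 ± 0.023), fell.

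Most tested checkpoint and immune-evasion genes rose too. Cd274, which encodes the checkpoint ligand PD-L1, stood at 1.1, 0.987, 1.01 and 1.61 CPM with vehicle and 35.7, 35.8, 38.5 and 41.7 with IFNγ (4.99 ± 0.15, adjusted p = 5.65e-35). Increases numbered 12 and decreases 1 among the 16 tested (median 0.41), of which 2, Ido1 and Ido2, reached the filter only through the IFNγ libraries. Serpinb9, an inhibitor of granzyme B (1.90 ± 0.062), Lgals9 (1.31 ± 0.075) and Nt5e, which makes adenosine (0.40 ± 0.025), were among the increases. Cd276 was not called (0.054 ± 0.034, adjusted p = 0.235). Ido1, the tryptophan-degrading enzyme, had 2 vehicle counts and 210 with IFNγ, a ratio of 115 (exact 95% counting interval 31.4 to 954).

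Among enzymes of nitric oxide, prostaglandin and related metabolism 8 of 12 rose (median 0.30). Nos2, the inducible nitric oxide synthase, rose from 17.4, 17.7, 17.5 and 17.2 to 377, 389, 377 and 376 CPM (4.44 ± 0.039, adjusted p = 7.32e-53), with guides nearly equal. Acod1, which makes itaconate (3.76 ± 0.12), and Wars (0.45 ± 0.029) rose. Ptgs2, which encodes cyclooxygenase-2, rose only by 0.15 ± 0.019. Of 24 caspase and cell death genes 16 rose and 2 fell (median 0.49), and those that rose included Mlkl, the executor of necroptosis (0.92 ± 0.026), Casp12 (2.26 ± 0.069) and the inflammasome caspase gene Casp1 (2.48 ± 0.088).

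Of 14 complement and acute-phase genes 4 reached the filter only through the IFNγ libraries, and 8 of the other 10 rose (median 1.68). C1s1, a protease of the classical complement pathway, rose from 2.45, 2.82, 2.69 and 2.6 to 67.4, 66.1, 62.6 and 61.8 CPM (4.62 ± 0.10). Serpina3g (5.21 ± 0.15), C1ra (3.17 ± 0.10) and Lcn2 (1.15 ± 0.03) rose too. NF-kB components and targets gave 10 increases and 1 decrease among 20, with a median of 0.18. There the adhesion molecule gene Icam1 stood out (4.12 ± 0.13), and the feedback genes Nfkbiz (0.92 ± 0.029), Nfkbia (0.52 ± 0.031) and Tnfaip3 (0.39 ± 0.023) rose less. Of 15 further surface and secreted interferon-response genes 11 rose and 2 fell, with Ly6a, also known as Sca-1, from 1.23, 1.27, 1.3 and 0.824 to 67.5, 73.7, 67.3 and 67.1 CPM (5.91 ± 0.14), Ly6e (2.36 ± 0.049), Il18bp, which neutralises interleukin-18 (4.45 ± 0.14), and Il15ra (2.82 ± 0.081).

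Fst, which encodes the activin antagonist follistatin, was among the same 12 increases and is not a usual member of interferon gene lists. It rose from 1.13, 1.17, 1.92 and 1.65 to 80.5, 82.1, 72.7 and 73.9 CPM (5.75 ± 0.13, adjusted p = 1.39e-41). In the list of TGF-beta pathway and Id genes on which it stands, 5 of 17 rose and 4 fell (median 0.0079), beside 18.1% and 16.1% of all tested genes. Among its members Id3 (0.61 ± 0.034), Id1 (0.42 ± 0.045) and the activin subunit gene Inhba (0.37 ± 0.032) were higher.

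The 12 largest decreases under the same conditions were small beside the increases. Jag1, a Notch ligand, fell from 65.8, 67.2, 74.5 and 74.3 to 28.8, 30.4, 35.8 and 32.8 CPM (-1.14 ± 0.045, adjusted p = 6.72e-25). Npnt, which encodes the matrix protein nephronectin, fell by 2.01-fold (-1.01 ± 0.056), and Tnnt2, cardiac troponin T, from 102, 109.8, 119 and 109 to 56.9, 56.2, 57.9 and 58.8 CPM (-0.93 ± 0.037). In these genes the treatments did not overlap. Spry1, an inhibitor of receptor tyrosine kinase signalling (-0.99 ± 0.062), Plat, tissue plasminogen activator (-0.97 ± 0.089), Cst6, a cysteine protease inhibitor (-0.95 ± 0.10), and Espn, an actin bundler (-0.90 ± 0.094), fell, as did Plet1 (-0.99 ± 0.065), Dynap (-0.98 ± 0.072), Kank3 (-0.97 ± 0.058), Evi2a (-0.90 ± 0.11) and Pgap1 (-0.90 ± 0.07). For Dynap the treatments overlapped. Of 76 genes lowered at least 2-fold, 33 were also called lower in each guide alone, against 298 of 338 raised genes called higher in each. Over all tested genes, 9.98% were called lower with sgRNA1 and 11% with sgRNA2, and 12.5% and 14.2% higher. Both sets were chosen by the mean of the guides, which favours calls in each guide alone.

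**Figure D3:**
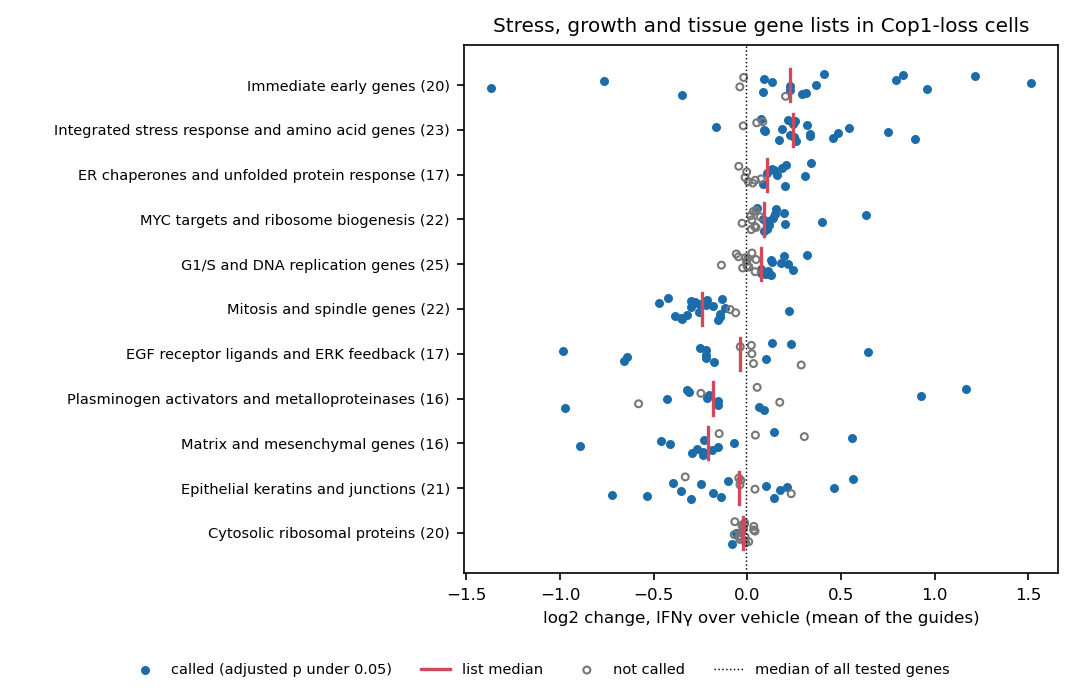
Log2 change with IFNγ in Cop1-loss cells (horizontal axis) of each tested member of 11 stress, growth and tissue gene lists, drawn as in the plot of immune lists. The scale is narrower, and mitosis and matrix genes lie mostly left of the dotted line, stress response genes mostly right of it.

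Immediate early genes, which respond within minutes to many stimuli, were mostly higher after 24 hours. Of 20 tested 14 rose and 3 fell (median 0.23). Atf3 (1.52 ± 0.055), Zfp36, which destabilises cytokine mRNAs (1.22 ± 0.064), Egr1 (0.96 ± 0.067) and Fosl2 (0.31 ± 0.027) rose. Jun, a known COP1 substrate at the protein level, was at 0.081 ± 0.032 (adjusted p = 0.045), a call that was lost with upper-quartile scaling (adjusted p = 0.458) and with DESeq2 (adjusted p = 0.137). It was also lost without Cop1 sgRNA1 vehicle replicate 1, Cop1 sgRNA1 vehicle replicate 2, Cop1 sgRNA2 vehicle replicate 2, Cop1 sgRNA1 IFNγ replicate 2, Cop1 sgRNA2 IFNγ replicate 1 or Cop1 sgRNA2 IFNγ replicate 2 (adjusted p = 0.079 to 0.152).

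Genes of C/EBP factors and Tribbles proteins rose in 6 of 9 cases, 4 with upper-quartile scaling. Cebpb stood at 66.8, 58.5, 68.5 and 60 CPM with vehicle and 95.7, 98.1, 97.2 and 92.1 with IFNγ (0.59 ± 0.043). Cebpd (0.92 ± 0.071) and Trib3 (0.94 ± 0.061) rose, and Trib2 was not called. Of 12 COP1 ligase partners and ETS substrates 1 rose and 4 fell, and with upper-quartile scaling 0 rose and 7 fell. The ETS factor genes Etv1 (-0.25 ± 0.043), Etv5 (-0.29 ± 0.05) and Etv4 (-0.20 ± 0.037) fell slightly.

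Genes of the integrated stress response, which reprogrammes amino acid supply, rose in 19 of 23 cases and fell in 1 (median 0.24), among them Chac1, which degrades glutathione (0.89 ± 0.064), Mthfd2 (0.49 ± 0.033), Asns (0.46 ± 0.036) and Shmt2 (0.33 ± 0.022). Chaperones of the endoplasmic reticulum rose less, 10 of 17 (7 with upper-quartile scaling), with Hspa5 at 0.20 ± 0.018. Among MYC targets and ribosome biogenesis genes 13 of 22 rose (9 with upper-quartile scaling), with the smallest p for Noc4l (0.63 ± 0.032) and Rrp9 (0.40 ± 0.032).

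Cell cycle genes divided by phase. Of 22 mitosis and spindle genes 19 fell and 1 rose (median -0.24). Cdc20, the activator of the anaphase-promoting complex, fell from 223, 219, 239 and 235 to 159, 155, 175 and 172 CPM (-0.47 ± 0.025, adjusted p = 5.75e-20). Ccnb1, which encodes cyclin B1 (-0.35 ± 0.026), and Ube2c (-0.30 ± 0.024) fell as well. Top2a, a topoisomerase made in S and G2 phases, was the member that rose (0.22 ± 0.017). Genes of G1/S and DNA replication gave 13 increases and no decrease among 25 (median 0.07; 9 increases with upper-quartile scaling), among them Rfc3 (0.32 ± 0.044) and Mcm10 (0.24 ± 0.034). Over all tested genes 18.1% rose and 16.1% fell, and of 12 p53 targets 3 rose and 4 fell. Without Cop1 sgRNA1 vehicle replicate 2, or with upper-quartile scaling, 1 of them was called higher.

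Matrix and mesenchymal genes fell in 11 of 16 cases and rose in 2 (median -0.21). Col18a1, a collagen chain, fell by 1.33-fold and Vim, which encodes vimentin, by 1.18-fold, while the matrix glycoprotein gene Thbs1 rose (0.56 ± 0.024). Epithelial keratins and junction genes went both ways, 6 higher and 9 lower of 21. Krt8 fell from 1301, 1300.3, 1294 and 1268 to 904, 894, 863 and 904 CPM (-0.53 ± 0.018) and Epcam by 1.23-fold (-0.30 ± 0.023), whereas Cldn7 rose (0.46 ± 0.033). Of 16 plasminogen activators and metalloproteinases 4 rose (2 with upper-quartile scaling) and 8 fell, with Adam8 (1.17 ± 0.064) and the collagenase gene Mmp13 (0.92 ± 0.079) up and Timp2, an inhibitor of metalloproteinases, down (-0.32 ± 0.02). Of 17 EGF receptor ligands and ERK feedback genes 4 rose and 8 fell, with Dusp6, the ERK phosphatase (0.64 ± 0.022), up and the ligand gene Areg (-0.66 ± 0.056) down. Among integrins 5 of 11 fell, for example Itgb5 (-0.23 ± 0.034).

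Some members that moved against their list, or were among few called, are named here after their values were seen. Some of these changes were small and their calls ended when a single library was left out. Ifnar1, a type I interferon receptor subunit (-0.15 ± 0.039), and Stat6 (-0.11 ± 0.026) fell. Ifngr2, a subunit of the IFNγ receptor itself, fell by the call (-0.17 ± 0.057), which ended without Cop1 sgRNA1 vehicle replicate 2, Cop1 sgRNA2 vehicle replicate 1 or Cop1 sgRNA2 IFNγ replicate 1 (adjusted p = 0.0609 to 0.191). Of the feedback genes Pias3 (-0.20 ± 0.06) and Trim24 (-0.21 ± 0.056) fell. The caspase gene Casp6 was called lower (-0.23 ± 0.061), which ended without Cop1 sgRNA2 IFNγ replicate 1 (adjusted p = 0.0566).

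Il23a was the cytokine gene that fell (-0.34 ± 0.044). Traf1 was the NF-kB target called lower (-0.15 ± 0.043), which ended without Cop1 sgRNA1 IFNγ replicate 2 or Cop1 sgRNA2 IFNγ replicate 1 (adjusted p = 0.0569 to 0.0639). Ccl7, a monocyte attractant, rose (2.22 ± 0.31), beside a change of 2.14 for Ccl2. Among immediate early genes Egr3 (-1.37 ± 0.32), Klf2 (-0.77 ± 0.13) and Fosb (-0.35 ± 0.085) fell, opposite to Egr1. Of p53 and growth arrest genes Mdm2 rose (0.14 ± 0.032), and Cdkn1b (-0.12 ± 0.03), Phlda3 (-0.24 ± 0.067) and Perp (-0.29 ± 0.029) fell. The cell cycle inhibitor gene Cdkn1a was called higher (0.17 ± 0.055), which ended without Cop1 sgRNA1 vehicle replicate 2, Cop1 sgRNA2 vehicle replicate 1 or Cop1 sgRNA2 IFNγ replicate 1 (adjusted p = 0.0548 to 0.14) and with upper-quartile scaling (adjusted p = 0.0686).

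The ligand gene Tgfb3 (-0.64 ± 0.081), Id2 (-0.35 ± 0.06), Smad7 (-0.25 ± 0.044) and Smad3 (-0.19 ± 0.032) were the decreases of the TGF-beta list. Of 18 genes of the NRF2 antioxidant response 4 rose, Hmox1 (0.37 ± 0.056), Gclm (0.31 ± 0.034), Keap1 (0.27 ± 0.035) and Txnrd1 (0.16 ± 0.022). A larger number, 6, fell, and the list median was -0.013. Nupr1 was the stress response gene called lower (-0.17 ± 0.064), which ended without Cop1 sgRNA1 vehicle replicate 1, Cop1 sgRNA1 vehicle replicate 2, Cop1 sgRNA2 vehicle replicate 1, Cop1 sgRNA1 IFNγ replicate 2, Cop1 sgRNA2 IFNγ replicate 1 or Cop1 sgRNA2 IFNγ replicate 2 (adjusted p = 0.0594 to 0.221). Ets1 was the COP1-related gene called higher (0.085 ± 0.022), though not with upper-quartile scaling (adjusted p = 0.202). Of the leukocyte markers, S100a8 rose (1.61 ± 0.19). Csf1r was called lower (-1.21 ± 0.47), which ended without Cop1 sgRNA1 vehicle replicate 2, Cop1 sgRNA2 vehicle replicate 2, Cop1 sgRNA1 IFNγ replicate 2, Cop1 sgRNA2 IFNγ replicate 1 or Cop1 sgRNA2 IFNγ replicate 2 (adjusted p = 0.0655 to 0.16).

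Housekeeping and metabolic lists had small median changes and their counts depended on the scaling. The shares over all tested genes, to set beside these counts, were 18.1% higher and 16.1% lower. Of 20 cytosolic ribosomal protein genes 2 fell, 12 with upper-quartile scaling, and their changes ran from -0.084 to 0.041. Of 21 respiratory chain genes 1 rose and 2 fell, 0 and 9 with upper-quartile scaling. Of 22 glycolysis and hypoxia genes 4 rose and 6 fell (3 and 10 with upper-quartile scaling), with hexokinase-2, Hk2, the largest increase (0.66 ± 0.028) and carbonic anhydrase 9, Car9, the largest decrease (-0.55 ± 0.044). Of 22 cholesterol synthesis genes 1 rose and 5 fell (1 and 8), and of 13 fatty acid synthesis genes 1 and 6 (1 and 9), with Scd2, a desaturase, at -0.29 ± 0.017. Of 18 genes of the NRF2 antioxidant response 4 rose and 6 fell (4 and 8), and of 13 YAP/TAZ factors and targets 9 and 2 (7 and 2).

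The guides gave closely similar responses. Tested alone, sgRNA1 called 2674 genes (22.5% of those tested) and sgRNA2 3008 (25.3%), and 1862 were called in the same direction by both. These are 69.6% of the sgRNA1 calls and 61.9% of the sgRNA2 calls, with 5 genes called in opposite directions. These 5, outside the rule for named genes, were the long noncoding RNA gene Neat1 (0.32 with sgRNA1 and -0.34 with sgRNA2), Pnisr (0.22 and -0.25), Hectd4 (-0.24 and 0.23) and the mitochondrial genes mt-Nd1 (0.24 and -0.26) and mt-Atp6 (0.81 and -0.73). In none of them was the difference between guides called, and for each of them the call of either guide ended without at least 1 of that guide's libraries. The guides share no library in these comparisons. Across all tested genes, which are not independent replicates, the log2 changes had a Pearson correlation of 0.848. Of 338 genes raised at least 2-fold on average, 308 rose at least 2-fold with each guide by their estimates, and the median change of the 338 was 2.13 with sgRNA1 and 2.05 with sgRNA2. These genes were chosen by the mean of the same estimates, and 82 of them were tested only through the IFNγ libraries. The choice favours a rise with each guide, so these values are no separate evidence that the guides are alike.

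**Figure D4:**
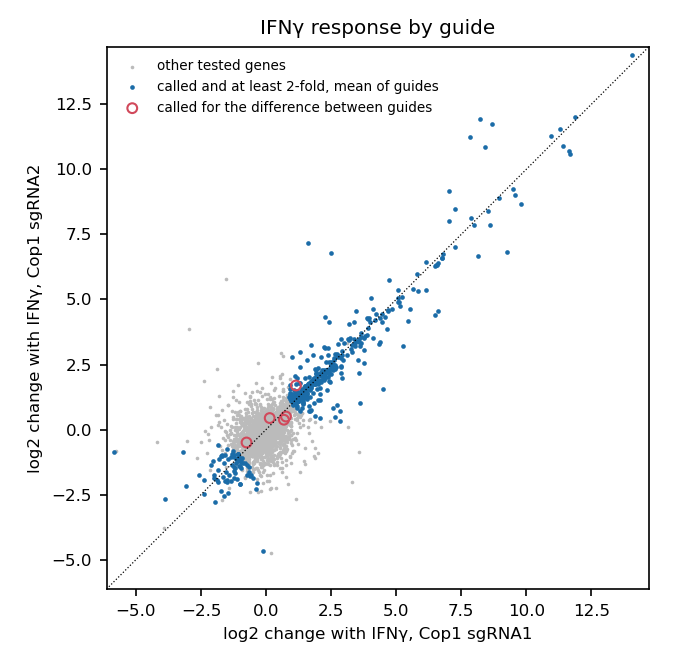
Log2 change with IFNγ of each of 11904 tested genes with sgRNA1 (horizontal axis) against sgRNA2 (vertical axis), with genes changed at least 2-fold on average in blue and the 5 genes called for a difference between guides circled in red. The dotted line marks equal responses, and the blue genes lie along it.

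The difference between the guides' responses was called for 5 genes (0.042% of those tested), with 1043 at an unadjusted p under 0.05 and 22 called by DESeq2. Leaving out 1 library gave 2 to 109 calls, and the largest numbers came without Cop1 sgRNA2 vehicle replicate 2 (109), Cop1 sgRNA1 vehicle replicate 1 (36) or Cop1 sgRNA2 vehicle replicate 1 (27). Without Cop1 sgRNA2 IFNγ replicate 1 there were 2, and without Cop1 sgRNA1 IFNγ replicate 2 or Cop1 sgRNA2 IFNγ replicate 2 there were 9. Cxcl5, a neutrophil attractant, stood at 354, 347, 366 and 369 CPM with vehicle and 564, 566, 479 and 476 with IFNγ. It rose by 0.69 ± 0.028 with sgRNA1 and by 0.38 ± 0.028 with sgRNA2 (difference -0.31 ± 0.039, adjusted p = 1.48e-05), and the call was kept whichever library was left out. Its relative Cxcl1 showed the same order (difference -0.26 ± 0.046, adjusted p = 0.00582), a call that ended without Cop1 sgRNA1 vehicle replicate 2 (adjusted p = 0.0656). Rnf213, a large interferon-induced ubiquitin ligase, rose more with sgRNA2 (difference 0.55 ± 0.079, adjusted p = 0.0109), a call that ended without Cop1 sgRNA2 IFNγ replicate 1 (adjusted p = 0.0737). Aff1 rose more with sgRNA2 (0.30 ± 0.061), and the linker histone gene H1f0 fell less (0.25 ± 0.047). The call for Aff1 ended without Cop1 sgRNA1 vehicle replicate 2 (adjusted p = 0.313), without Cop1 sgRNA1 IFNγ replicate 1 (adjusted p = 0.231), without Cop1 sgRNA1 IFNγ replicate 2 (adjusted p = 0.0528), without Cop1 sgRNA2 IFNγ replicate 1 (adjusted p = 0.194) and without Cop1 sgRNA2 IFNγ replicate 2 (adjusted p = 0.0687). That for H1f0 ended without Cop1 sgRNA1 vehicle replicate 2 (adjusted p = 0.0822), without Cop1 sgRNA1 IFNγ replicate 1 (adjusted p = 0.178) and without Cop1 sgRNA2 IFNγ replicate 1 (adjusted p = 0.291).

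Rosa26 cells, which share no library with the Cop1-loss response, changed 3900 genes (32.8%). Of the 338 genes raised at least 2-fold in Cop1-loss cells 303 were called higher in Rosa26 cells too (16.6% of all tested genes were), and of the 76 lowered 37 were called lower (16.2%). The difference between the responses, Cop1 loss minus Rosa26, was called for 683 genes (5.74%), 402 higher (3.38%) and 281 lower (2.36%), and for 18 the difference was at least 2-fold (0.151%; 8 higher, 0.0672%, and 10 lower, 0.084%). Leaving out 1 library gave 348 to 733 calls. The number was 453 without Rosa26 vehicle replicate 1, 353 without Rosa26 vehicle replicate 2 and 348 without Rosa26 IFNγ replicate 1. Summing the libraries gave 322 calls. Rosa26 is a single population, so a property of that population cannot be told apart from the presence of Cop1. Among the 338 raised genes 53 were higher and 15 lower in this difference. They were chosen for a high response in Cop1-loss cells, which favours a higher difference, so that this imbalance is no separate evidence.

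GTPases and antigen processing genes were among those that responded more in Cop1-loss cells. Over all tested genes 3.38% were called higher in the difference. The counts for both GTPase lists include members tested only through the IFNγ libraries, and the calls were not split by this. Of 11 guanylate-binding proteins, 4 of them tested in that way, 5 were called higher (3 without Rosa26 vehicle replicate 2). Of 10 immunity-related GTPases, 7 of them tested in that way, 5 were called higher. The latter number was 1 without Rosa26 vehicle replicate 1. It was 3 without Rosa26 vehicle replicate 2, Rosa26 IFNγ replicate 2, Cop1 sgRNA1 IFNγ replicate 1 or either Cop1 sgRNA2 IFNγ replicate. Of 13 genes of peptide loading and the immunoproteasome 8 were higher, 5 without Rosa26 vehicle replicate 2. Irgm1 rose by 4.93 ± 0.065 in Cop1-loss cells and by 3.89 ± 0.08 in Rosa26 cells (difference 1.05 ± 0.10, adjusted p = 1.57e-09). Rosa26 libraries had 11.3 and 10.4 CPM with vehicle and 161 and 159.7 with IFNγ, against 5.43, 6.44, 7.02 and 9.98 and 204, 207, 226 and 229 in Cop1-guide libraries, which began lower and ended higher. Gbp3 differed by 0.76 ± 0.11 (adjusted p = 5.53e-07). Its vehicle levels were 6.69 and 8.23 CPM in Rosa26 and 3.56 to 5.33 in Cop1-guide libraries, while the IFNγ levels overlapped (391 and 380.5 against 346 to 422).

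Cxcl10 and C1s1 had larger fold responses in Cop1-loss cells and yet lower levels. Cxcl10 stood at 6.32 and 6.94 CPM in the Rosa26 vehicle libraries and 149 and 153 with IFNγ, above every Cop1-guide library of the same treatment (difference of responses 1.01 ± 0.15, adjusted p = 4.81e-06). C1s1 went from 8.69 and 8.81 to 111 and 118 CPM in Rosa26 cells and from 2.45 to 2.82 to 61.8 to 67.4 in Cop1-loss cells (difference 0.91 ± 0.13, adjusted p = 1.73e-06). Gbp4 differed by 0.84 ± 0.16 (adjusted p = 5.58e-05), but its call was lost without Rosa26 vehicle replicate 2 (adjusted p = 0.294), where the difference was 0.49. Iigp1 had the largest value of the 6 increases named by rule (1.46 ± 0.49, adjusted p = 0.0456) on few vehicle counts. Its call ended without Rosa26 vehicle replicate 1 (adjusted p = 0.0734), without Rosa26 vehicle replicate 2 (adjusted p = 0.402), without Cop1 sgRNA1 vehicle replicate 1 (adjusted p = 0.24), without Cop1 sgRNA2 vehicle replicate 2 (adjusted p = 0.122), without Rosa26 IFNγ replicate 1 (adjusted p = 0.0601), without Rosa26 IFNγ replicate 2 (adjusted p = 0.0667), without Cop1 sgRNA1 IFNγ replicate 1 (adjusted p = 0.0548), without Cop1 sgRNA2 IFNγ replicate 1 (adjusted p = 0.0533) and without Cop1 sgRNA2 IFNγ replicate 2 (adjusted p = 0.0564).

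Some genes of the interferon core were also called in the difference, with calls that leaving out a single library could end. Gbp2 differed by 0.59 ± 0.12 (adjusted p = 0.011), lost without Rosa26 vehicle replicate 2 (adjusted p = 0.148) and without Rosa26 IFNγ replicate 1 (adjusted p = 0.0539). Cd74 differed by 0.45 ± 0.13 (adjusted p = 0.0314). It was lost without Rosa26 vehicle replicate 2 (adjusted p = 0.517), without Cop1 sgRNA1 vehicle replicate 1 (adjusted p = 0.0533), without Rosa26 IFNγ replicate 1 (adjusted p = 0.11), without Cop1 sgRNA1 IFNγ replicate 2 (adjusted p = 0.0528) and without Cop1 sgRNA2 IFNγ replicate 2 (adjusted p = 0.0623), and its difference was 0.26 without Rosa26 vehicle replicate 2. Nos2 differed by 0.21 ± 0.058 (adjusted p = 0.0142), lost without Rosa26 vehicle replicate 1 (adjusted p = 0.183) and without Rosa26 IFNγ replicate 1 (adjusted p = 0.0774). Ccl5 responded less in Cop1-loss cells (-0.51 ± 0.13, adjusted p = 0.0112), lost without Rosa26 vehicle replicate 1 (adjusted p = 0.0728) and without Cop1 sgRNA1 vehicle replicate 1 (adjusted p = 0.0766). Irf1 (0.064 ± 0.05, adjusted p = 0.554), H2-K1 (-0.071 ± 0.038, adjusted p = 0.327), B2m (0.041 ± 0.033, adjusted p = 0.57) and Cd274 (0.40 ± 0.24, adjusted p = 0.393) were not called.

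Immediate early and inflammatory genes responded less in Cop1-loss cells. Over all tested genes 2.36% were called lower in the difference. Of 20 immediate early genes 12 were called lower, of 14 neutrophil chemokines and inflammatory cytokines 9, and of 20 NF-kB components and targets 9. None of these lists had a member called higher. Their median differences were -0.45, -0.44 and -0.26, beside 0.01 over all tested genes. Egr1 rose by 0.96 ± 0.067 in Cop1-loss cells and by 2.12 ± 0.085 in Rosa26 cells (difference -1.16 ± 0.11, adjusted p = 2.30e-10). The Rosa26 IFNγ libraries had 66.9 and 67.1 CPM of it and the Cop1-guide IFNγ libraries 19.1 to 27.5.

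Dusp1, a phosphatase of stress-activated kinases, rose only in Rosa26 cells by the calls (0.99 ± 0.091, against -0.09 ± 0.066, adjusted p = 0.312, in Cop1-loss cells), and this difference itself was called (-1.08 ± 0.11, adjusted p = 2.67e-09). Zfp36 rose in both, less in Cop1-loss cells (-0.96 ± 0.11, adjusted p = 4.54e-08). Ptgs2 went from 633 and 637 to 1072 and 1066 CPM in Rosa26 cells and from 434 to 461 to 487 to 506 in Cop1-loss cells (difference -0.60 ± 0.033, adjusted p = 1.61e-17). Jun differed by -0.60 ± 0.056 (adjusted p = 2.30e-10). Mmp13 (-0.92 ± 0.13, adjusted p = 3.38e-06) and Gadd45g (-0.87 ± 0.17, adjusted p = 5.89e-04) were, with Egr1, Dusp1, Zfp36 and Irf8, the 6 most negative differences among called genes whose log2 CPM averaged 3 or more. Cxcl1, chosen after its values were seen, rose by 1.38 ± 0.032 in Rosa26 cells and differed by -0.74 ± 0.04 (adjusted p = 1.61e-17).

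Irf8 had a smaller response in Cop1-loss cells (-0.94 ± 0.068, adjusted p = 8.61e-14) with another arrangement of levels. Its vehicle level was 17.6 and 18.9 CPM in Rosa26 libraries and 33.5 to 40.5 in Cop1-guide libraries, whereas with IFNγ it was 215 and 221 and 222 to 245. The populations thus differed by more before IFNγ than after it.

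**Figure D5:**
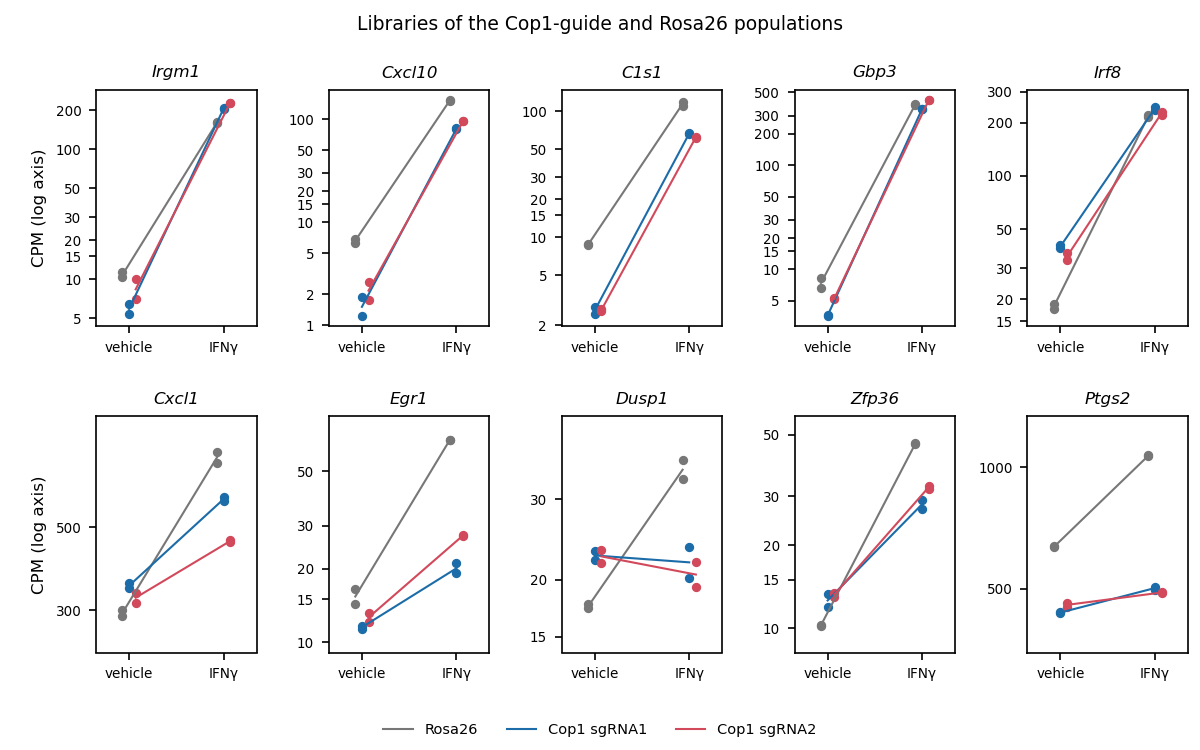
CPM (log axis) of 10 genes in each library of the Rosa26, Cop1 sgRNA1 and Cop1 sgRNA2 populations, with vehicle and IFNγ (2 libraries each) and lines joining the geometric means. Cxcl10 and C1s1 are lower in Cop1-guide libraries throughout but rise more steeply, Irf8 starts higher and ends close to Rosa26, and Egr1, Dusp1 and Ptgs2 rise less or not at all.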

How the data were processed

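RNA was sequenced from 4T1 cells in 12 libraries, 2 per guide and treatment. Reads were processed with STAR 2.4.0, HTSeq and DESeq2 1.10 on mm10, per the submitters' processing notes. For strand setting, annotation and shared reads, nothing is given in the sources used here. The authors deposited raw read counts per gene, 22298 genes and a row of totals, which was left out. The table has 0 columns of other samples.

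From these counts edgeR 4.0.16 (R 4.3.3, limma 3.58.1) was run with TMM scaling, filterByExpr (minimum count 10, minimum total 15; 11904 genes) and a robust quasi-likelihood fit with 6 group means. IFNγ was compared with vehicle within each guide and averaged, between guides, and against Rosa26. Standard errors of log2 changes are Wald errors of that fit, with each library's variance never below counting error. P-values are Benjamini-Hochberg adjusted over all tested genes, with a threshold of 0.05. All 12 libraries share 1 estimate of the spread. The script was tested on simulated data. CPM is the count per 1000000 counts of the TMM-scaled library size.

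Named genes are Cop1, the 12 largest increases and decreases (mean log2 CPM of at least 3, called with each guide), the 5 most abundant genes with at most 3 vehicle counts, up to 4 called members of each list by smallest p and up to 2 uncalled by abundance, and 22 fixed genes. For each difference between responses they are the 6 largest each way and the fixed genes. The text names some of these, and some genes are not reported here. The members and lists were chosen with earlier results of these data known. Promoters are RefSeq's (GRCm38.p6). Alternatives were other scalings, filters, DESeq2 1.42.0, a replicate block, a 1.5-fold test, summed libraries, the 8 Cop1-guide libraries alone and each library left out.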

Additional observations from a re-analysis of the deposited data

Results flagged for a closer look

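The results below were picked out because the responses of 2 groups differed by a test of the difference itself. Between the guides 5 genes were called. On the log2 scale, sgRNA2 minus sgRNA1, the differences were -0.31 for Cxcl5, -0.26 for Cxcl1, 0.55 for Rnf213, 0.30 for Aff1 and 0.25 for H1f0.

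Between Cop1-loss and Rosa26 cells 683 genes were called. Among the genes whose difference from Rosa26 is given in the text, the response was larger in Cop1-loss cells for Iigp1 (1.46), Irgm1 (1.05), Cxcl10 (1.01), C1s1 (0.91), Gbp4 (0.84), Gbp3 (0.76), Gbp2 (0.59), Cd74 (0.45) and Nos2 (0.21). It was smaller for Egr1 (-1.16), Dusp1 (-1.08), Zfp36 (-0.96), Irf8 (-0.94), Mmp13 (-0.92), Gadd45g (-0.87), Cxcl1 (-0.74), Ptgs2 (-0.60), Jun (-0.60) and Ccl5 (-0.51).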

How the results depend on the processing

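With edgeR's test against a 1.5-fold change, which asks for more than a difference from 0, 428 genes were called in Cop1-loss cells, 368 with sgRNA1, 357 with sgRNA2, 423 in Rosa26 cells, 0 for the guide difference and 6 for the difference from Rosa26, and 30 of the genes lowered at least 2-fold. The other alternatives gave 3301 (DESeq2) to 4540 (upper-quartile scaling) calls in Cop1-loss cells, and leaving out 1 library 3505 to 3855. A stricter low-count filter, which tests fewer genes, left 39 genes lowered at least 2-fold. The guide difference had 75 calls with no filter, 22 with DESeq2, 9 with only the 8 Cop1-guide libraries and 2 to 109 without 1 library. The cause was not tested. The difference from Rosa26 had 437 calls with DESeq2, 322 with summed libraries and 348 to 733 without 1 library. Replicate numbers did not pair libraries (correlations of deviations from -0.0496 to 0.0714), and a replicate block gave 10 calls for the guide difference. Canx was at -0.032 with upper-quartile scaling, a change of sign of an uncalled value. Genes of few vehicle counts have fold changes that depth limits.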
